A study of Mus musculus with 2 samples.

Results

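Retnla and Retn, the members of the resistin family on a 379-gene panel, were followed through mouse dorsal skin by imaging of single RNA molecules in tissue sections (Xenium In Situ, v1 chemistry). They were chosen by name, and they are 2 of the 379 panel genes and 2 of the 4 resistin-family genes that RefSeq names in the mouse. All their transcripts with a quality score of 20 or more were used: 24558 in the section labelled SspA+HDM and 26178 in the mock section. Both sections came from C57BL/6 mice whose dorsal skin had been shaved and depilated. The first skin then received SspA and HDM on its surface and the mock skin received PBS in the same way, and both were prepared on day 7 as 5-µm slices of formalin-fixed, paraffin-embedded tissue. The labels spell out neither SspA nor HDM, and they give no age, sex or number of animals. With a single sample for each treatment no difference could be tested, and the 95% intervals describe the counting of transcripts alone.

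The resistin family consists of small, cysteine-rich proteins that cells secrete. In mice, resistin (Retn) is a hormone made by adipocytes, whereas RELM alpha (Retnla, also called FIZZ1) is best known from macrophages exposed to the type 2 cytokines IL-4 and IL-13, and is also made in adipose tissue. Mouse skin lies on a layer of dermal fat and a thin sheet of skeletal muscle, the panniculus carnosus, with loose fascia beneath it.

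The genes lie on different chromosomes, Retn on chromosome 8 (3655770 to 3659818, GRCm38.p6) and Retnla on chromosome 16 (48842609 to 48844461). The 250 bases before each RefSeq gene start, on the plus strand, are printed because the pair differed in layer and in cell type. In mouse cells Retnla is known as a STAT6 and C/EBP target, and Retn as a gene driven by C/EBP alpha and PPAR gamma in adipocytes. Capitals mark matches to 3 motifs searched on both strands, a STAT6-type site TTCNNNNGAA, a C/EBP-type site TTGCNNAA and a TATA box TATAAA. None of the matches overlap.
Retnla, chr16:48842359-48842608: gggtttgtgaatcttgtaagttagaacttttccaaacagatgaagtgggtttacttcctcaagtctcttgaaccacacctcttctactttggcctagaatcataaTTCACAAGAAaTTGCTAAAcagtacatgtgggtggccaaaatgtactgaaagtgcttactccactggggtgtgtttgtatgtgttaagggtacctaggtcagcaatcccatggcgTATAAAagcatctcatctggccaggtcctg
Retn, chr8:3655520-3655769: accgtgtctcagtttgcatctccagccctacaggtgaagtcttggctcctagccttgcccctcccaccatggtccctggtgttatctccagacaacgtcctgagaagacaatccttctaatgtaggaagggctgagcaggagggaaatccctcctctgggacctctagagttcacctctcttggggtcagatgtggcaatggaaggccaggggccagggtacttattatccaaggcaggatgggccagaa
The Retnla window held 1 match to each motif, TTCACAAGAA starting at -145, TTGCTAAA at -134 and TATAAA at -30 from the gene start. The Retn window held none of the 3. Of 32851 mouse promoters of this length, 5.85% held the STAT6-type letters, 9.56% the C/EBP-type letters and 12.4% the TATA letters. These matches describe the letters and were not tested as sites.

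The SspA+HDM section held 8124205 gene transcripts of quality 20 or more and 46142 segmented cells, against 2461475 transcripts and 15932 cells in the mock section. No cell identifier occurred in both. Each section consisted of 2 strips of tissue, 7.45 and 7.48 mm long after SspA+HDM and 6.63 and 6.91 mm long in mock skin. Strips are parts of 1 sample and not replicates, and they are given to show the spread within a section. The tissue was thicker in the SspA+HDM strips, with median depths of 345 and 359 µm against 211 and 222 µm in the mock strips. The fat layer was thicker as well, at 64.8 and 66.6 µm against 29.3 and 29.3 µm. Levels are therefore given both as CPM (the gene's share of the panel transcripts in the same cells, on the CPM scale of sequencing counts) and per mm of strip length, since the CPM scale moves with whatever other tissue a section holds. The most frequent control feature had 127 transcripts in the SspA+HDM section and 34 in the mock section, far below either gene.

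Retnla was the gene of lowest SspA+HDM-to-mock ratio among the 346 compared. In cells it had 4344 transcripts after SspA+HDM, or 548 CPM, against 12480 transcripts, or 5367 CPM, in mock skin, a level 9.80-fold lower (9.46 to 10.1). The strips had 461 and 620 CPM after SspA+HDM and 4943 and 5747 CPM in mock skin, so the sections lay far outside the difference between their own strips. Retn had 2457 CPM after SspA+HDM, with strips at 2166 and 2697, against 5134 CPM in mock skin, with strips at 4808 and 5428, and was 2.09-fold lower (2.04 to 2.14). Both genes passed the 2-fold limit for calling a gene lower, as did 12.7% of all genes compared, and the median log2 ratio of all 346 was 0.05. The order of sections depended on the scale for Retn and not for Retnla. Per mm of strip, Retnla had 291 transcripts after SspA+HDM against 921 in mock skin, whereas Retn had 1304 after SspA+HDM against 881 in mock skin and was thus higher there.

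Fewer cells held Retnla after SspA+HDM, and the fullest of them held less. At least 1 Retnla transcript was found in 3.22% of SspA+HDM cells against 17.6% of mock cells, and the fullest cell held 39 against 83. Retn was found in 10.9% of cells against 15.5%, with a maximum of 55 against 51. Cells with 10 or more transcripts numbered 88 against 345 for Retnla, and held 29.7% of it against 49.2%. For Retn they numbered 486 against 354, and held 37.3% of it against 45.3%. A lower level in a layer or class can come from fewer cells of a type or from less RNA per cell, and the values below give both where cells could be named.

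Depth separated the pair in both sections. Measured from the local skin surface, the median Retnla transcript lay at 340 µm after SspA+HDM and at 174 µm in mock skin, which was 96.7% and 87.2% of the local tissue depth. The median Retn transcript lay at 268 µm (70.7%) after SspA+HDM and at 119 µm (55.0%) in mock skin. Cells of all kinds had a median depth of 153 µm after SspA+HDM and 80.9 µm in mock skin. Retnla was thus the deeper gene in each section, and 66.5% of it after SspA+HDM and 56.6% of it in mock skin lay below the middle of the muscle sheet, against 3.27% and 1.19% of Retn.

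**Figure D1:**
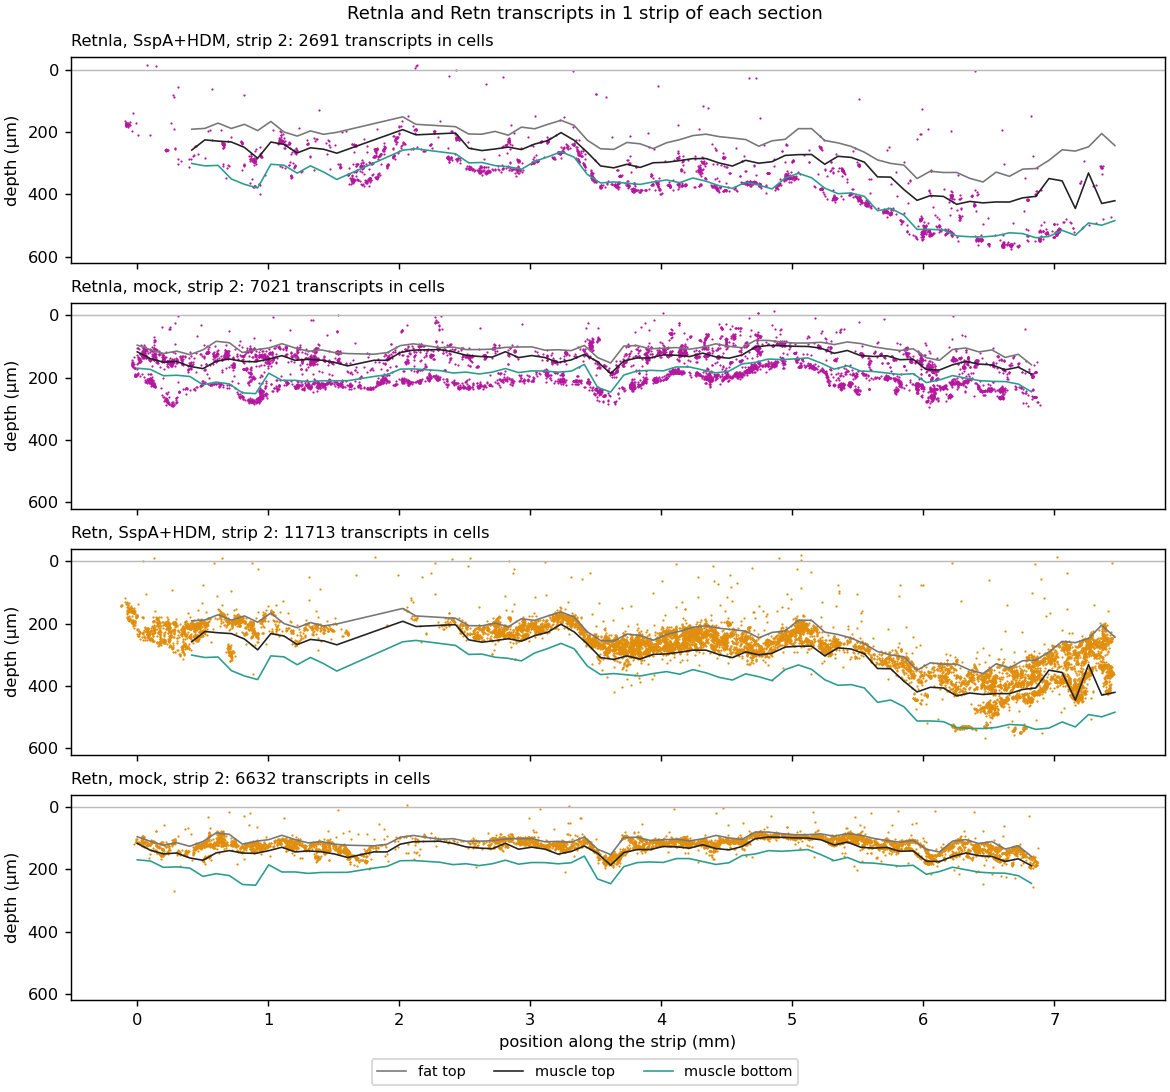
Position of every in-cell Retnla (purple) and Retn (orange) transcript in strip 2 of each section, with position along the strip in mm and depth below the local surface in µm; lines mark the top of the fat and the top and bottom of the muscle. Retn fills the band between the top of the fat and the muscle in both sections, while Retnla lies along both faces of the muscle in mock skin and mostly along and beneath it after SspA+HDM.

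Retnla formed a pair of sheets, one on each face of the muscle. In bins of 20 µm counted from the muscle middle, mock skin had a peak of 144 transcripts per mm in the bin centred 30 µm towards the surface, a dip to 58.0 in the bin just below the middle, and a further peak of 208 in the bin centred 50 µm below it. The SspA+HDM section kept the deeper peak at 58.6 per mm, centred at 30 µm, and had 30.5 per mm in the bin centred 30 µm towards the surface. Retn had a single peak, at 316 per mm centred 70 µm above the muscle middle after SspA+HDM and at 365 per mm centred 30 µm above it in mock skin.

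**Figure D2:**
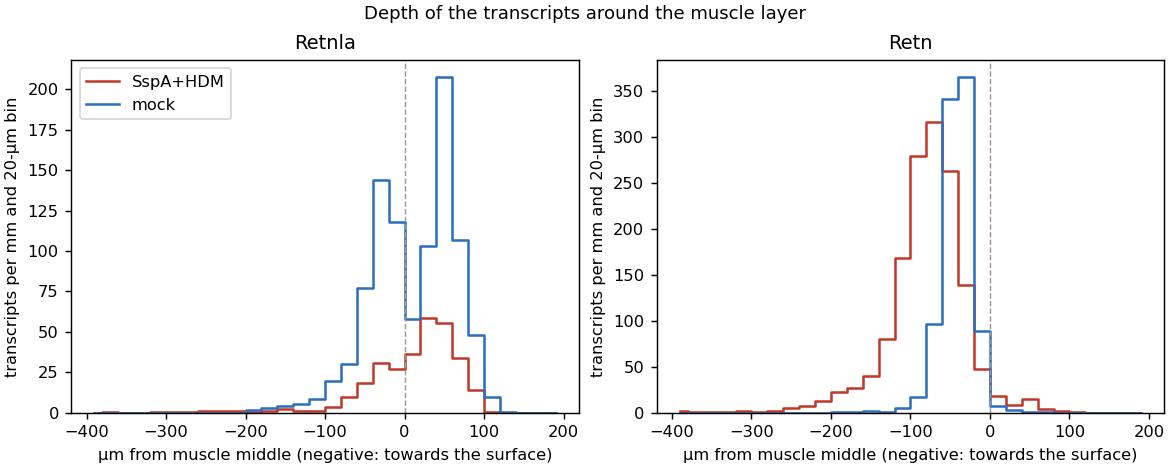
Transcripts per mm of strip in 20-µm bins (vertical axis) by distance from the middle of the muscle sheet in µm (horizontal axis, negative towards the surface), for SspA+HDM (red) and mock (blue). Mock Retnla shows 2 peaks, 144 and 208 per mm on either side of the muscle middle, and Retn shows 1 peak above the muscle in each section.

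The layers were set where both fat and muscle could be outlined, which covered 86.4% of Retnla after SspA+HDM and 93.6% of it in mock skin. Retnla was lower after SspA+HDM in all 4 layers, by very different amounts. Above the fat, in epidermis and dermis, it had 9.14 transcripts per mm against 89.0, with strips at 9.76 and 8.56 against 93.6 and 85.2, and was 9.74-fold lower (8.03 to 11.9). In the fat layer it had 39.8 per mm against 203, with strips at 32.4 and 46.6 against 171 and 230, 5.11-fold lower (4.64 to 5.63). Within the muscle the gap was small, at 129 per mm against 194, with strips at 130 and 127 against 211 and 181, 1.51-fold lower (1.42 to 1.61). Deep to the muscle it had 121 per mm against 459, 3.80-fold lower (3.59 to 4.02). There the SspA+HDM strips differed most from each other, at 65.4 and 172, against 377 and 527 in the mock strips. In no layer did the strips of the sections overlap.

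Retn per mm was higher after SspA+HDM in every layer. It had 153 transcripts per mm above the fat against 110, 1077 in the fat against 725, 215 in the muscle against 90.8 and 17.96 deep to it against 2.92. The fat layer held most of the Retn in both sections, 73.6% after SspA+HDM and 78.0% in mock skin. Its strips were at 833 and 1302 per mm after SspA+HDM against 685 and 758 in mock skin.

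**Figure D3:**
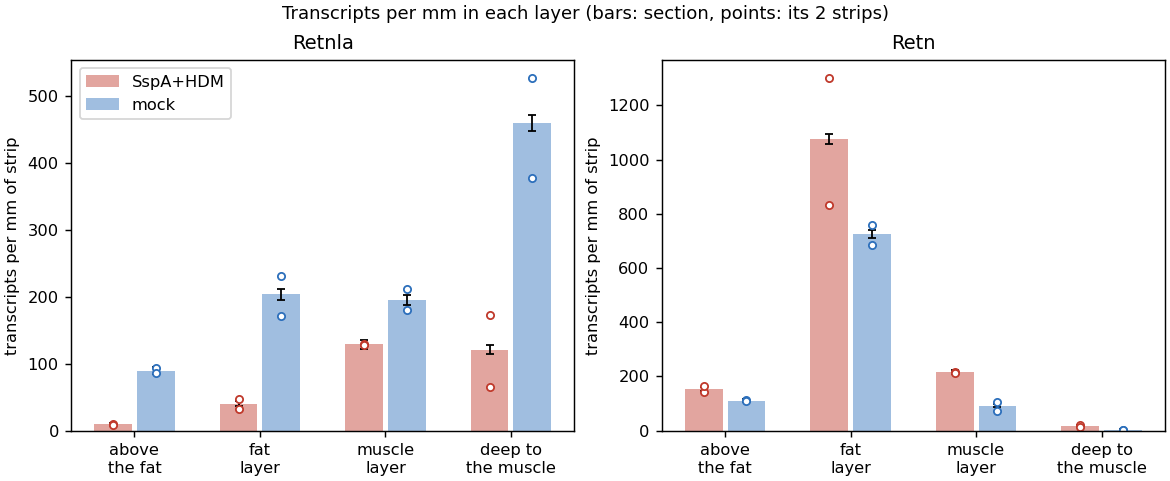
Transcripts per mm of strip (vertical axis) in 4 layers for SspA+HDM (red) and mock (blue); bars are the section, error bars 95% Poisson intervals, and points its 2 strips. Retnla is lower after SspA+HDM in every layer, least so within the muscle (129 against 194 per mm), and Retn is higher in every layer, with 1077 against 725 per mm in the fat.

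Relative to all panel transcripts of the cells centred in the same layer, Retnla had the lowest ratio of all genes compared in each of the 4 layers. It was 44.4-fold lower above the fat (21.6 against 958 CPM), 13.5-fold lower in the fat (719 against 9714 CPM), 2.71-fold lower in the muscle (1624 against 4403 CPM) and 4.04-fold lower deep to the muscle (8774 against 35403 CPM). The shares of genes at least 2-fold lower were 20.8%, 6.57%, 1.67% and 10.9% in these layers. Retn was 3.80-fold lower above the fat (370 against 1408 CPM) and 1.63-fold lower in the fat (20413 against 33280 CPM), and it was 1.14-fold higher in the muscle (2716 against 2392 CPM). Deep to the muscle it was 5.33-fold higher (3.81 to 7.63), on 229 against 41 transcripts, and 11.6% of genes were at least 2-fold higher there.

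Cells were then grouped by expression of the 377 other panel genes and named from marker genes, so neither member shaped its own class. In mock skin, Retnla had its highest level in fibroblast-like cells, at 29052 CPM with strips at 25294 and 32327. Macrophage- or monocyte-like cells followed at 17951 CPM with strips at 15034 and 20524. Adipocyte-like cells (6079 CPM, strips 6201 and 5988), lymphatic endothelial-like cells (5629, strips 8011 and 4010), skeletal-muscle-like cells (5512, strips 5467 and 5555) and blood endothelial-like cells (5359, strips 3111 and 7202) came next. The strips of the endothelial classes spanned those of the adipocyte- and muscle-like cells, whereas both adipocyte-like strips lay above both muscle-like strips. Mural-like cells had 2082 CPM, and the epithelium (keratinocyte- and hair-follicle-like cells) had 223 CPM.

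After SspA+HDM every one of these classes was lower. Fibroblast-like cells had 2827 CPM, with strips at 1391 and 4002, and were 10.3-fold lower than in mock skin (9.51 to 11.1, with 17.2% of 174 genes at least 2-fold lower). Skeletal-muscle-like cells came next at 2080 CPM, with strips at 1978 and 2162, and this order was within the spread of the fibroblast-like strips. They were 2.65-fold lower than in mock skin (2.53 to 2.78), and only 1.49% of genes were 2-fold lower in that class. Macrophage-like cells had 1148 CPM, with strips at 957 and 1295, 15.6-fold lower (13.98 to 17.5, with 6.59% of 182 genes called lower). Adipocyte-like cells had 386 CPM, with strips at 272 and 455, 15.7-fold lower (12.8 to 19.5, with 5.37% of 149 genes called lower). Lymphatic and blood endothelial-like cells had 329 and 260 CPM, and the epithelium had 14.2 CPM. The size of these gaps depended on the grouping of cells: without the finer clustering of connective-tissue cells the log2 ratio was -1.16 in fibroblast-like cells, in place of -3.36, and -2.96 in macrophage-like cells, in place of -3.97.

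The classes also shared out the transcripts differently. Skeletal-muscle-like cells held 65.4% of in-cell Retnla after SspA+HDM and 34.2% in mock skin. Fibroblast-like cells held 16.9% against 41.3%, and at a higher clustering resolution, where the cluster richest in Retnla took a muscle name, the mock share was 2.003%. Macrophage-like cells held 9.16% against 11.4% and adipocyte-like cells 2.35% against 6.42%. How much of the Retnla inside muscle-like outlines belonged to neighbouring cells was not tested. Of the Retnla in muscle-like cells, 19.9% after SspA+HDM and 16.6% in mock skin lay over a nucleus, against 12.7% and 11.0% of all panel transcripts there.

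The share of cells with a Retnla transcript was nearly the same in the fibroblast-, muscle- and adipocyte-like classes of mock skin and differed widely after SspA+HDM. It was 5.58% of fibroblast-like cells after SspA+HDM against 36.2% in mock skin, 3.93% against 29.9% of macrophage-like cells, 3.81% against 38.1% of adipocyte-like cells and 17.8% against 36.9% of muscle-like cells. In the epithelium, the background class, the share was 0.292% after SspA+HDM and 2.19% in mock skin. Epithelial cells held a median of 159 and 120 panel transcripts, more than fibroblast-like cells (66 and 73) and macrophage-like cells (73 and 78) and close to adipocyte-like cells (126 and 132). Muscle-like clusters 5, 11 and 22 held more, with medians of 238, 373 and 214, and cluster 19 held 72. Among these clusters the share ran from 4.28% (cluster 19) to 25.4% (cluster 5) after SspA+HDM. In mock skin it ran from 16.5% to 56.0% in the same clusters. The shares were not compared at equal transcripts per cell.

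Retn had another order. Adipocyte-like cells stood first at 30183 CPM after SspA+HDM, with strips at 29927 and 30337, against 47084 CPM in mock skin, with strips at 47599 and 46701, 1.56-fold lower (1.51 to 1.61). Macrophage-like cells came next at 12328 CPM, with strips at 11521 and 12947, against 16240 CPM, with strips at 16296 and 16192. Their 1.32-fold lower value turned round when only transcripts over a nucleus were counted, when cells needed 40 transcripts, or when macrophages were picked by marker counts, with log2 ratios of 0.017, 1.65 and 0.83. Blood endothelial-like, lymphatic endothelial-like and muscle-like cells had 2185, 1973 and 1953 CPM after SspA+HDM, an order within their strips, against 6865, 8106 and 3512 CPM in mock skin. Fibroblast-like cells had 872 CPM against 2562, and the epithelium had 214 CPM against 208. The epithelium included cluster 18, named hair follicle and led by Wif1, Acan, Chodl and Sox2. That cluster held 632 Retn transcripts in 1477 cells after SspA+HDM, at 5385 CPM. In mock skin it held 27 in 37 cells, so the epithelial values differ in make-up between the sections.

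Adipocyte-like cells held 40.9% of in-cell Retn after SspA+HDM and 52.0% in mock skin, and macrophage-like cells held 21.9% against 10.8%. Outside the named classes, cluster 110 held 12.7% against 4.77%, at 28920 against 33194 CPM. Its leading genes were fat genes such as Hp, Aqp7 and Pck1 together with endothelial genes such as Plvap, Tie1 and Vwf. A Retn transcript was found in 79.8% of adipocyte-like cells after SspA+HDM against 89.4% in mock skin, in 27.8% against 29.4% of macrophage-like cells, and in 2.75% against 2.08% of epithelial cells. Epithelial cells centred in the fat layer had it in 22.4% of cells after SspA+HDM and 15.5% in mock skin. These include cells of cluster 18, 25.3% of which lay in the fat layer after SspA+HDM. Retn was found in 19.0% of all cluster 18 cells after SspA+HDM and 24.3% in mock skin. Other cells of that layer had it more often, 38.9% against 47.7% of blood endothelial-like cells and 50% against 66.2% of muscle-like cells, and how much of this came from adjoining adipocytes was not tested.

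**Figure D4:**
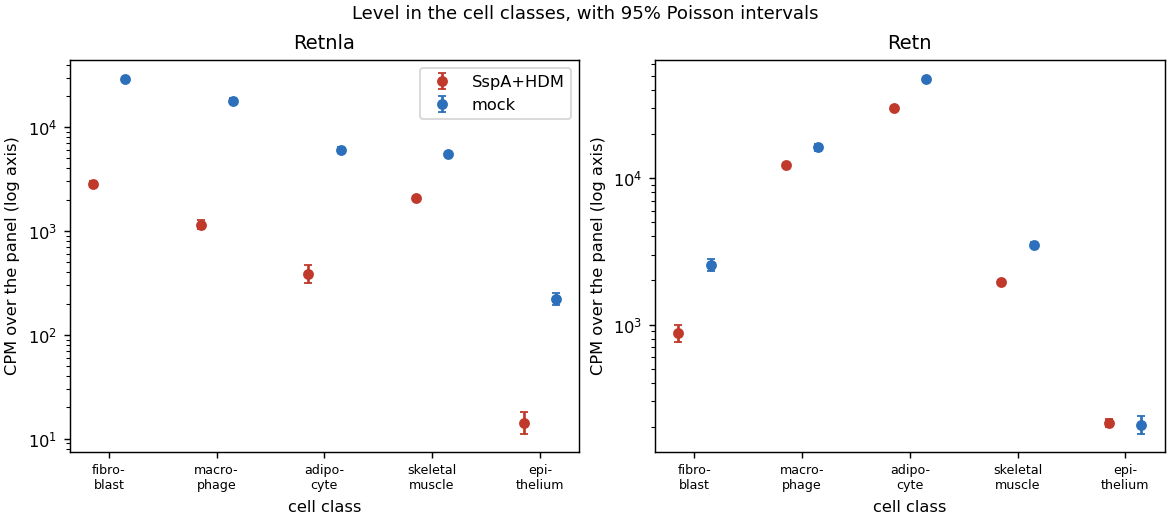
Level in CPM over the panel (log axis) of each gene in 5 cell classes for SspA+HDM (red) and mock (blue), with 95% Poisson intervals. Every class is lower in Retnla after SspA+HDM, and fibroblast-like cells are highest in mock skin at 29052 CPM, whereas adipocyte-like cells lead in Retn at 30183 against 47084 CPM.

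The fibroblast-like class was made of different clusters in the sections. Cluster 101, led by Mfap4 and Lum, which code for matrix proteins, had 2827 SspA+HDM cells against 150 mock cells. Cluster 108, led by Fibin and Pi16, had 113 against 959. Cluster 109 was led by Pi16, a marker of adventitial and fascial fibroblasts, Igfbp6, which binds insulin-like growth factors, and the lymphatic and macrophage gene Lyve1, and had 287 against 739. Its leading genes also included the macrophage gene Folr2 and the muscle genes Ttn, Actn3 and Pygm. Its Folr2, 16213 against 10222 CPM, was near that of macrophage-like cluster 103, 15029 against 12418 CPM. Its Ms4a7, 4894 against 1281 CPM, was below the 13007 against 4164 CPM there. Retnla was concentrated in cluster 109, and how much of it lay in macrophages was not tested. Cluster 109 had 27191 CPM after SspA+HDM, with strips at 25321 and 27714, against 64583 CPM in mock skin, with strips at 58698 and 69203, 2.38-fold lower (2.19 to 2.58). In that cluster 2.44% of 82 genes were 2-fold lower. Cluster 101 had 99.7 CPM against 3256, 32.7-fold lower (17.9 to 60.5) on 21 and 28 transcripts, with 19.1% of genes 2-fold lower. Cluster 108 had 0 transcripts against 112, with 12.1% of genes 2-fold lower. With 3 transcripts put in place of 0, the value was 3.50-fold lower (1.17 to 17.2). Cluster 111, led by Ccn3 and Pi16, had 180 against 246 cells and the most similar levels of the class, 3861 CPM of Retnla against 5253, 1.36-fold lower (1.02 to 1.83). Its Retn was 3251 CPM against 14497, 4.46-fold lower (3.41 to 5.91), and 18% of 50 genes were 2-fold lower there. Fat genes were lower in it as well, Car3 at 21589 against 76112 CPM and Cd36 at 6908 against 17389 CPM, and 12.3% of its cells after SspA+HDM against 65.5% in mock skin lay above the fat. Their part in the Retn value was not tested. The 10.3-fold gap of the whole class was therefore 2.38-fold inside its richest cluster, which had fewer cells and a lower level in each after SspA+HDM.

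The deep fibroblast-like cells were largely the same cells, since 86.6% of cluster 109 cells after SspA+HDM and 91.6% in mock skin were centred deep to the muscle. Fibroblast-like cells centred deep to the muscle numbered 239 after SspA+HDM, 48 and 191 in the strips, against 622, 253 and 369 in the strips. They held a mean of 2.46 and 2.59 Retnla transcripts per cell in the SspA+HDM strips against 6.55 and 7.72 in the mock strips. Their level was 28835 CPM against 69145 CPM, 2.40-fold lower (2.203 to 2.61), with 2.56% of 78 genes 2-fold lower. Retnla was present in 57.7% of these cells against 86.3%. Above the fat, fibroblast-like cells had 73.6 CPM against 2648, 36.0-fold lower on 14 and 231 transcripts, where 14% of 157 genes were 2-fold lower. Retn was nearly absent from the deep fibroblast-like cells, with 5 and 19 transcripts.

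Macrophage-like cells of the fat layer were the richest class there in mock skin. They had 1244 CPM of Retnla after SspA+HDM, with strips at 1104 and 1338, against 29354 CPM in mock skin, with strips at 23888 and 33556. This was 23.6-fold lower (20.2 to 27.7), and 6.06% of 132 genes were at least 2-fold lower. The cells themselves were more frequent after SspA+HDM, 1160 against 183, or 70.6 and 84.8 per mm in the strips against 13.3 and 13.7. The thicker fat layer after SspA+HDM also held more cells of all kinds, 5062 against 1810. A Retnla transcript was found in 7.24% of them against 67.2%, and in 0.796% against 6.80% of the epithelial cells of that layer. Above the fat, macrophage-like cells had 105 CPM against 8699, 82.6-fold lower (49.4 to 149) on 15 and 400 transcripts, with 11.2% of 134 genes 2-fold lower. Markers of other cells were lower in them too: 3 of 5 adventitial fibroblast genes (median log2 ratio -1.37) and 2 of 2 adipocyte markers (median -1.53) were at least 2-fold lower, against a median of 0.17 for all genes, and their part in the Retnla value was not tested.

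Macrophage markers were compared in the same cells. Of the 11 marker genes of the class, 10 could be compared within the macrophage-like cells of the fat, and 4 were at least 2-fold higher after SspA+HDM and 0 at least 2-fold lower, with a median log2 ratio of 0.70 against 0.01 for all 132 genes, where 19.7% of genes were called higher and 6.06% lower. Ms4a7, a membrane protein of mature macrophages, was 3.56-fold higher, at 12788 against 3593 CPM. Folr2, a folate receptor of resident tissue macrophages, was at 14763 against 12970 CPM, and the chemokine Ccl9 was at 22779 against 27881 CPM. Folr2 and Ccl9 thus differed by far less than Retnla in the same cells. The marker genes helped to group and name these cells and Retnla did not, so a smaller gap in the markers was partly set in advance. Lyve1, which is no member of the marker list and is also a lymphatic gene, was at 897 against 3551 CPM in cluster 103, which held most of the macrophage-like cells of the fat.

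Cluster 103 had 1260 cells after SspA+HDM and 294 in mock skin. It was led by fat genes (Hp, Pck1, Nnat, Car3) together with Ms4a7 and Ms4a6c. Its Car3 level, 138983 against 154229 CPM, was near that of adipocyte-like cells, 149249 against 206855 CPM, and how much of its RNA came from adjoining fat was not tested. It had 1251 CPM of Retnla against 27701, 22.1-fold lower (19.1 to 25.7), and 23740 CPM of Retn against 31007. Cluster 107, also led by macrophage genes (Ccl12, Ms4a7, Ms4a6c), had little Car3, 5767 against 6432 CPM. It had 1037 CPM of Retn against 974.6, on 75 and 10 transcripts. Its Retnla was 1023 CPM against 10135, on 74 and 104 transcripts in 947 and 143 cells, 9.90-fold lower (7.28 to 13.5). Cluster 102, led by Mpeg1 but also by the T cell genes Ctla4 and Cd3d, had 1058 CPM of Retnla against 6760. The shares of genes at least 2-fold lower were 6.62%, 9.8% and 7.5% in clusters 103, 107 and 102. Among clusters 102, 103 and 107, Retn in both sections and Retnla in mock skin were thus highest in cluster 103, which also had the most Car3. How far fat-gene content set these levels was not tested.

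Adipocyte-like cells also came from different clusters, cluster 105 with 1241 SspA+HDM cells against 109 mock cells and cluster 106 with 519 against 766. Cluster 106 had the same Retn level in both sections, 48937 against 48791 CPM, a ratio of 1.003 (0.961 to 1.05). Cluster 105 had 23663 CPM against 28203, 1.19-fold lower (1.06 to 1.34). Inside each cluster the gap was thus smaller than the 1.56-fold of the class. Retnla was far lower in both, at 616 CPM against 5975 in cluster 106, 9.69-fold (7.10 to 13.6), and 306 CPM against 7234 in cluster 105, 23.6-fold (16.7 to 33.6). In these clusters 16.3% and 13.3% of genes were 2-fold lower.

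**Figure D5:**
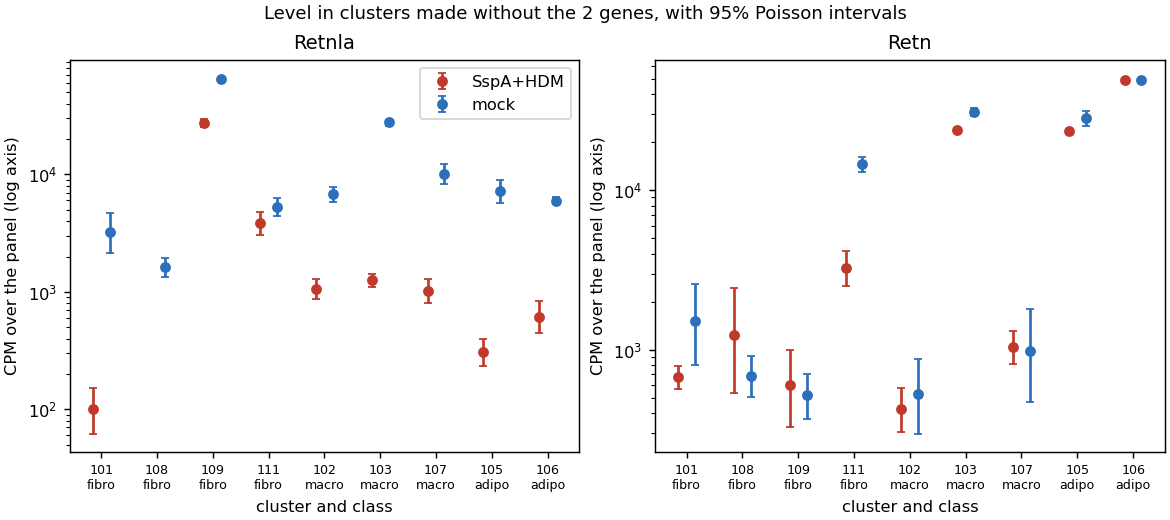
Level in CPM over the panel (log axis) in the fibroblast-, macrophage- and adipocyte-like clusters made without the 2 genes, for SspA+HDM (red) and mock (blue), with 95% Poisson intervals; cluster 108 had no Retnla after SspA+HDM and has no point there. Retnla is lower after SspA+HDM in every cluster drawn, by 1.36-fold in cluster 111 and 32.7-fold in cluster 101, and Retn is level in cluster 106, at 48937 against 48791 CPM.

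In the fat layer the genes overlapped in mock skin. Of cells with Retn there, 4.97% also held Retnla after SspA+HDM against 43.0% in mock skin, and of cells without Retn 4.61% against 25.2%. Cells with Retn were deeper sampled, with a median of 142 and 144 transcripts against 69 and 55 in cells without it, so these shares do not show that the genes were made by the same cells. Distances to named cells were measured in the same layer. Retnla in the fat lay at a median of 9.72 µm from the nearest macrophage-like cell centre after SspA+HDM and 14.3 µm in mock skin, and Retn at 12.3 and 21.9 µm. From the nearest adipocyte-like centre Retnla lay at 13.3 and 12.01 µm, and Retn at 8.99 and 7.87 µm. In mock skin both genes thus lay nearer to adipocyte-like than to macrophage-like centres, and 39.1% of Retnla was within 10 µm of an adipocyte-like centre and 39.2% within 10 µm of a macrophage-like one. The mock fat layer held 699 adipocyte-like cells against 183 macrophage-like cells, and how far these numbers set the order was not tested. Per mm of strip length the fat held more macrophage-like cells after SspA+HDM, at 77.7 against 13.5. That fat layer was also thicker, at 64.8 and 66.6 µm in the strips against 29.3 and 29.3 µm, so these values are not densities. How far the number of macrophage-like cells set the distances was not tested.

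Cells rich in Retnla held more macrophage-marker transcripts in the fat, within the muscle and deep to it. In the mock fat layer, the 145 cells with 5 or more Retnla transcripts drew 4.56% of their transcripts from macrophage markers, against 1.08% in the 1122 cells with 0, and had 8271 CPM of Folr2 against 2076. After SspA+HDM only 16 cells of the fat layer were that rich, with 10.2% macrophage-marker transcripts against 3.80% in the 4818 cells with 0. Within the muscle the share was 4.05% against 1.08% after SspA+HDM and 2.24% against 0.281% in mock skin. Deep to the muscle the share was 7.17% against 1.53% after SspA+HDM and 4.66% against 0.736% in mock skin. Pi16 was higher in the rich cells there, at 36468 CPM after SspA+HDM against 16828 in cells with 0, and at 95843 against 29394 CPM in mock skin. Folr2 was higher in them too, at 19663 against 2859 CPM after SspA+HDM and 14011 against 1713 CPM in mock skin. In the fat layer Pi16 was lower in the rich cells, at 9247 against 9488 CPM after SspA+HDM and 8041 against 11457 CPM in mock skin. Muscle-marker transcripts made up 9.35% against 6.05% in the mock fat. Rich cells of the mock fat held a median of 209 transcripts against 98, and contents were not compared at equal transcripts per cell.

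Position relative to the nucleus differed by class. Over the whole section 21.7% of Retnla after SspA+HDM and 17.4% in mock skin lay over a nucleus, and 15.5% and 11.6% of Retn, against a median of 44.0% and 36.9% over panel genes. Within macrophage-like cells, 34.7% and 31.7% of Retnla lay over the nucleus, more than the 28.8% and 26.6% of all their panel transcripts. In adipocyte-like cells it was 13.7% and 13.98%, on 14 and 112 transcripts over a nucleus, less than the 22.6% and 18.5% of the panel. Fibroblast-like cells were also below their panel, at 20.2% and 14.7% against 30.5% and 24.9%. So were blood endothelial-like cells, at 17.5% and 13.1% against 37.5% and 34.3%. Relative to the other RNA of the same cells, Retnla thus lay over the nucleus less often in adipocyte-, fibroblast- and blood endothelial-like cells. It lay there more often in macrophage-like and, as given above, muscle-like cells.

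Genes whose pattern was most like each member were ranked over 48 profiles (24 clusters in each section) and over 50-µm tiles of each section. These correlations are descriptions, since the profiles share sections and depth. For Retnla the profiles gave Selenbp1, which binds selenium (r = 0.78), Igfbp6 (0.77), the complement component C3 (0.74), Ccl9 (0.73) and Tmem100 (0.73). Over 1546 mock tiles the leading genes included Folr2 (0.58), Ccl9 (0.50) and F13a1 (0.43), which macrophages express, and the matrix gene Dpt (0.46). Over 2743 SspA+HDM tiles they were the muscle genes Myoz1 (0.35), Actn3 (0.35), Des (0.35), Trdn (0.34) and Hrc (0.34). For Retn the profiles gave Hp, which codes for haptoglobin (0.95), the glyceroneogenic enzyme Pck1 (0.91), Timp4 (0.89), Nnat (0.87) and Car3 (0.87). Hp also led over the tiles, at 0.86 after SspA+HDM, followed by Pck1 (0.82), Aqp7 (0.74), Cav1 (0.71) and Timp4 (0.70), and at 0.91 in mock skin, followed by Ccdc80 (0.84), Cav1 (0.80), Cd36 (0.77) and C3 (0.77). Between the members r was 0.57 over profiles, and over tiles -0.03 after SspA+HDM and 0.20 in mock skin.

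Gene lists around each member moved less than Retnla. Of 6 genes of adventitial and fascial fibroblasts on the panel, all 6 were lower over the whole section after SspA+HDM and 3 at least 2-fold so, with a median log2 ratio of -1.15, beside 12.7% of all genes and a median of 0.05. Pi16 was 3.85-fold lower (3345 against 12871 CPM) and Igfbp6 3.40-fold lower (1666 against 5658 CPM), while Ackr3 and Mfap5 were each 1.59-fold lower. In cluster 109, 5 of the 6 were lower, 0 of them 2-fold, with a median of -0.47 against 0.15 for all 82 genes. Of 6 genes of fat hormones and fat metabolism, 4 were lower over the whole section and 0 at least 2-fold so, with a median of -0.62, beside the same 12.7% and 0.05. Car3, a carbonic anhydrase abundant in fat, was 1.95-fold lower and Cd36, a fatty acid transporter, 1.78-fold lower. Hp was 1.65-fold higher (6994 against 4237 CPM) and Pck1 1.09-fold higher (602 against 554 CPM). The type 2 list had 1 gene on the panel, Areg, the epidermal growth factor receptor ligand amphiregulin, which was 4.28-fold higher, at 1131 against 264 CPM, where 14.7% of all genes were at least 2-fold higher. None of the listed partner genes of the family (Cap1, Tlr4 and Btk) was on the panel.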

How the data were processed

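Both sections were imaged with Xenium In Situ on 5-µm slices, per the labels' protocols. The deposited tables give each transcript's gene, position, cell and quality score, and other columns hold positions, taken as µm, and cell outlines, per the file headers. For decoding and segmentation, software and settings were not given in the labels or headers read. The members and gene lists were chosen with earlier results of these data known.

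Gene transcripts with a score of at least 20 were counted in cells, and CPM scales a gene's count to the panel transcripts of the same cells. Cells with at least 20 transcripts were clustered on log counts of the 377 panel genes other than Retnla and Retn (30 principal components, 15 neighbours, Leiden resolution 1, leidenalg 0.10.2, scikit-learn 1.9.0). A second round on 15251 cells of 3 pooled connective-tissue clusters was added after the data were seen. Clusters were named from fixed markers, of which at least 3 had to be detected at 2-fold over the median cluster. On this panel 4 adipocyte, 10 fibroblast and 11 macrophage markers were measured. Doublets were not called, and cells with fewer transcripts, unnamed clusters and a small cluster led by Cyp11a1 and Cpa3 are not described as classes.

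Depth was measured from the local surface in 100-µm bins. The fat top was the 10th percentile of adipocyte-like cell depths. The muscle ran from the 10th to the 90th percentile of skeletal-muscle-like cell depths, where a bin held at least 3 of each. Cluster 19, named skeletal muscle but led by Kcna1, was left out of the muscle edges and the muscle middle. Transcripts were placed in layers by their own position for values per mm, and by their cell's centre for CPM.

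A gene was compared with at least 100 transcripts in 1 section and called at 2-fold. Intervals are exact Poisson, Clopper-Pearson or conditional binomial at 95% (scipy 1.17.1) and, with 1 sample per group, no test was run. The named genes are the members, the 5 most like each in every ranking, and at most 4 per list; 1 gene of these rankings is not reported here. Marker genes of the classes and clusters, Ms4a7, Folr2, Ccl9 and Lyve1 among them, were named after their values were seen. The ratio and interval code was tested on simulated data. The alternatives covered the quality score, nuclear transcripts, scaling, clustering, cell minimum, marker gating, surface bins and strips. Results for macrophage-like cells and for layers, other percentiles for the layer edges and a single clustering round were added after the data were seen. Promoter sequences and gene positions are RefSeq's, for GRCm38.p6, matched by symbol for both members. Levels of the 2 genes are not compared with each other, since their probe sets may differ in efficiency.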

Additional observations from a re-analysis of the deposited data

How the results depend on the processing

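Of 159 alternative values for 15 results, 59 moved by less than the counting interval, 95 moved beyond it and 5 turned round, and each Retnla ratio stayed below 0. Values are log2 ratios, SspA+HDM over mock, unless named otherwise. Per mm of strip, Retnla was at -1.66 (whole section) and -2.52 (fat layer), and Retn turned to 0.57 and 0.53. Per cell the genes were at -3.06 and -0.83, against a panel total without muscle-, adipocyte- and mural-like cells at -3.70 and -1.47, and Retn over all transcripts was at -1.02. Without a quality filter, Retnla was at -3.19 and Retn in the fat at -0.65. At a score of 30, Retnla was at -3.43 (whole section) and -3.48 (fibroblast-like), and Retn at -1.14 (whole section), -0.72 (adipocyte-like), -0.53 (macrophage-like) and -0.80 (fat). Over nuclei alone, Retnla was at -3.19 (fibroblast-like), -4.29 (adipocyte-like), -4.10 (fat) and -1.57 (deep), and Retn at -0.94 (whole section), -0.55 (adipocyte-like), 0.017 (macrophage-like, turned round) and 3.74 (deep). Layer edges at the 25th and 75th percentiles gave -3.18 and -0.61 in the fat.

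Class values depended most on how cells were grouped. For Retnla in fibroblast-like cells, resolution 2, clusters from all genes, a 40-transcript minimum, marker counts and no second round gave -2.60, -3.85, -4.46, -4.12 and -1.16. In macrophage-like cells, resolutions 0.5 and 2, all genes, marker counts and no second round gave -2.62, -3.44, -3.35, -3.13 and -2.96. In adipocyte-like cells, all genes, 40 transcripts and no second round gave -3.15, -4.41 and -3.66. Retn in adipocyte-like cells was at -0.57, -0.55, -0.52, -0.36, -0.31 and -0.56 under resolutions 0.5 and 2, all genes, 40 transcripts, marker counts and no second round. In macrophage-like cells it was at -0.54 and -0.53 under the 2 resolutions, and turned round to 1.65 with 40 transcripts and 0.83 with marker counts.

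In mock skin, the share of Retnla in fibroblast-like cells was 39.3% without a quality filter, 43.0% at a score of 30, 35.0% over nuclei, 24.97% with 40 transcripts, 43.5% with marker counts and 39.0% with no second round. At resolution 2 it was 2.003%, since the cluster led by Pi16, C3 and Igfbp6 was then named skeletal muscle. The share of Retn in adipocyte-like cells was 56.9% over nuclei, 71.2% at resolution 0.5, 60.6% with all genes, 55.4% with 40 transcripts, 74.6% with marker counts and 70.4% with no second round. Median mock depth of Retnla was 169.7 µm without a filter, 178 µm at a score of 30 and 158 µm over nuclei, and that of Retn 117 µm over nuclei and 116.9 µm with 50-µm bins. Distances to the nearest keratinocyte-like cell were 119 and 67.1 µm. The cause of the other moves was not tested.

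Leaving out each strip in turn, Retnla ran from -3.54 to -3.11 (whole section), -4.38 to -2.86 (fibroblast-like), -4.48 to -3.74 (adipocyte-like), -4.23 to -3.71 (macrophage-like), -3.87 to -3.59 (fat) and -2.64 to -1.67 (deep). Retn ran from -1.25 to -0.93, -0.66 to -0.63 (adipocyte-like), -0.50 to -0.33 (macrophage-like), -0.79 to -0.65 (fat) and 2.15 to 2.71 (deep). The mock shares ran from 38.5 to 43.6% and 50.5 to 53.1%, and the depths from 169.7 to 178 µm and 118 to 119 µm. Without SspA+HDM strip 2 the fibroblast-like value rests on 1391 CPM, against 4002 CPM in that strip. No paired analysis was possible because each treatment had 1 sample and no test was run.

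With 1 section per treatment, differences between animals, sites or sections and the treatment cannot be told apart. Depth limits the values on few transcripts, such as cluster 101, mural-like cells and Retn deep to the muscle in mock skin.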

Other observations

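Retn differed along the skin in the same sense in every strip. The end at higher position values had 1.55 and 1.57 times the Retn CPM of the opposite end in the SspA+HDM strips and 1.49 and 1.41 times in the mock strips. Retnla did not share this, at 0.652 and 0.881 in the SspA+HDM strips against 1.32 and 1.15 in the mock strips. In segments of 0.5 mm, Retn per mm ran from 13.9 to 2185 and from 43.7 to 2772 in the SspA+HDM strips, and from 131 to 1170 and from 114 to 1287 in the mock strips. The lowest Retn segment was centred at 1.75 or 2.25 mm along every strip, away from its ends. Retnla ran from 35.7 to 457 and from 69.6 to 604 after SspA+HDM, and from 392.5 to 1624 and from 556 to 1513 in mock skin. No segment lacked either gene.

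Deep to the muscle, macrophage-like cells were few. They numbered 20 after SspA+HDM, with 63 Retnla transcripts, against 3 in mock skin, with 60.

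A larger share of Retnla than of most genes lay outside segmented cells. In cells were 94.6% of it after SspA+HDM and 89.98% in mock skin, where 17 of 345 and 15 of 259 genes had a lower share.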
